A study of Mus musculus with 4 samples.

Results

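The meiotic chromosome axis and recombination genes described here are 10 genes taken by symbol from tables of 25239 gene symbols: Stra8, Sycp1, Sycp2, Sycp3, Syce1, Hormad1, Rec8, Stag3, Smc1b and Dmc1. All 10 were found. They were measured in mouse embryonic stem cells (mESC) of the genotype Ogt fl/fl, in which Ogt is flanked by loxP sites. Ogt encodes O-GlcNAc transferase, which attaches a sugar to serine and threonine residues of many nuclear and cytoplasmic proteins. The Ogt iKO (induced knockout) group was 2 libraries of polyadenylated RNA from cells kept for 6 days in 4-hydroxytamoxifen (4-OHT), and the control group was 2 libraries from the same Ogt fl/fl cells kept without it. Both groups grew on mitotically inactive mouse embryonic fibroblasts in medium with LIF and, per the labels, were sorted with the aim of removing those feeders. The labels give CD90.2 as the marker that selects mESC and CD326 as the one that excludes the fibroblasts. CD326 is the product of Epcam, known from mESC, and CD90.2 that of Thy1, known from fibroblasts, so the roles may be exchanged in the labels. Epcam stood at 280 and 287 CPM (counts scaled to a common library total) in Ogt iKO and at 347 and 307 CPM in control, and Thy1 at 25.6 and 8.90 CPM in Ogt iKO and at 15.6 and 15.6 CPM in control. Per kb of exon the mean level of Epcam was 129 CPM in Ogt iKO and 149 CPM in control, against 5.75 and 5.21 CPM for Thy1. Of these 2 sorting markers the RNA thus held far more Epcam than Thy1, which was still counted in every library. Other fibroblast genes lay both above and below Thy1 per kb, such as Sparc (182 CPM in Ogt iKO, 103 CPM in control) and Pdgfra (0.781 and 0.683 CPM). The pair alone therefore does not measure how many feeders remained. Per the labels, only the treated cells were also sorted for YFP, and the labels describe no 4-OHT-treated cells with intact Ogt, so the ligand, the recombinase and the YFP gate cannot be told apart from the loss of Ogt. The driver of the recombinase and the number of clones behind the line are not given in the sources used here, nor whether the replicates came from separate cultures, so p-values measure only the spread between these libraries.

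In meiosis, homologous chromosomes are shortened onto a protein axis, broken and repaired against each other, and held together by the synaptonemal complex. Retinoic acid switches on Stra8 in germ cells, and STRA8 with its partner MEIOSIN activates much of the meiotic programme. The axis is built from cohesin complexes with meiotic subunits (REC8, STAG3, SMC1B), from the axis proteins SYCP2 and SYCP3, and from HORMAD1. SYCP1 forms the rungs that join both axes, SYCE1 is part of the central element between them, and DMC1 is the recombinase that carries out strand exchange between homologues. In mESC many of these genes are known targets of repression by DNA methylation and by the PRC1.6 complex, whose E2F6 and MGA-MAX subunits recognise E2F sites and E-boxes.

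Because E-boxes and E2F sites are the letters such repressors read, the stretches upstream of the RefSeq start sites that hold them are shown first, for Sycp1, Hormad1, Smc1b and Sycp3. These 4 genes differ in how their counts moved, as described below. Capitals mark matches to CACGTG (an E-box, the same on both strands) or to GCGGGAA (an E2F core, searched on both strands, so that its reverse complement TTCCCGC also counts). Each stretch is given 5′ to 3′ on the gene's own strand in GRCm38.p6 from RefSeq.
Sycp1, chr3:102936174-102936209, minus strand: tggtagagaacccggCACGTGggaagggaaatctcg
Hormad1, chr3:95559567-95559676, plus strand: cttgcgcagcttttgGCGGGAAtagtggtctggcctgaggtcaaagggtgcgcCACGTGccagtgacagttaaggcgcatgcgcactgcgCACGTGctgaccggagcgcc
Smc1b, chr15:85131984-85132020, minus strand: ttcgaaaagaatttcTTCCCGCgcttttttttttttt
Sycp3, chr10:88459425-88459564, plus strand: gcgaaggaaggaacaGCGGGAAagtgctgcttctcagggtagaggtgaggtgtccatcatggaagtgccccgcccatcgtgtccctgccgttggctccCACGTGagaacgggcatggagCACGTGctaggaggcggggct

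Library totals ran from 14668489 to 16504204 counts. Where a gene is at 0, counting error alone leaves room for 3 counts. Levels are given in CPM, counts scaled to a common library total after TMM normalization. Ogt itself gave 437 and 389 counts in the treated libraries and 2963 and 3108 in the controls, which is 12.9% of the control level. All 10 embryonic stem cell markers examined were counted in every library. Their summed level was 2681 and 3013 CPM in Ogt iKO against 4783 and 4715 CPM in control. Of the 10, 9 were lower and none higher (adjusted p under 0.05, edgeR), where 32.0% of all genes tested were lower and 33.2% higher. Ogt iKO replicate 1 stood apart in feeder fibroblast markers. The summed level of 12 such markers, with Fn1 and Sparc the highest by counts over all libraries, was 4171 CPM in that library and 1857 to 2619 CPM in the other 3, with none of them at 0. Of these 12, 2 (Pdgfrb and Sparc) were higher and none lower, beside the same 33.2% and 32.0% of all genes tested. The part of feeder RNA in the results was not tested, and values without that library are given where they bear on it.

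The comparison of Ogt iKO with control split the 10 meiotic genes: Stra8, Sycp1, Sycp2, Syce1, Hormad1 and Rec8 (6 genes) were higher, Sycp3 and Dmc1 (2 genes) were lower, and Stag3 and Smc1b did not pass. A call here is an adjusted p below 0.05 in the quasi-likelihood test of edgeR, with p-values adjusted by the Benjamini-Hochberg method across 14525 genes. Among all genes tested, 65.3% were called, 33.2% as higher and 32.0% as lower. The median log2 fold change of the 10 genes was 0.80, against 0.024 over all genes tested. At a change of at least 2-fold, 5 of the 10 were higher, where 14.9% of all genes were, and 1 was lower, where 6.04% were. The groups did not overlap for 9 of the 10 genes, and for 83.2% of all genes tested. Sycp2 reached the count minimum of the test in the Ogt iKO libraries only, so it could enter the test only by being higher there. Without Ogt iKO replicate 1 the same counts, 6 higher and 2 lower, were found. The log2 fold changes were then 1.53 for Sycp1, 1.81 for Sycp2, 1.72 for Syce1, 0.35 for Hormad1, 1.23 for Rec8 and -0.59 for Dmc1. In bulk RNA, fewer cells with a transcript and less transcript per cell cannot be told apart.

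**Figure D1:**
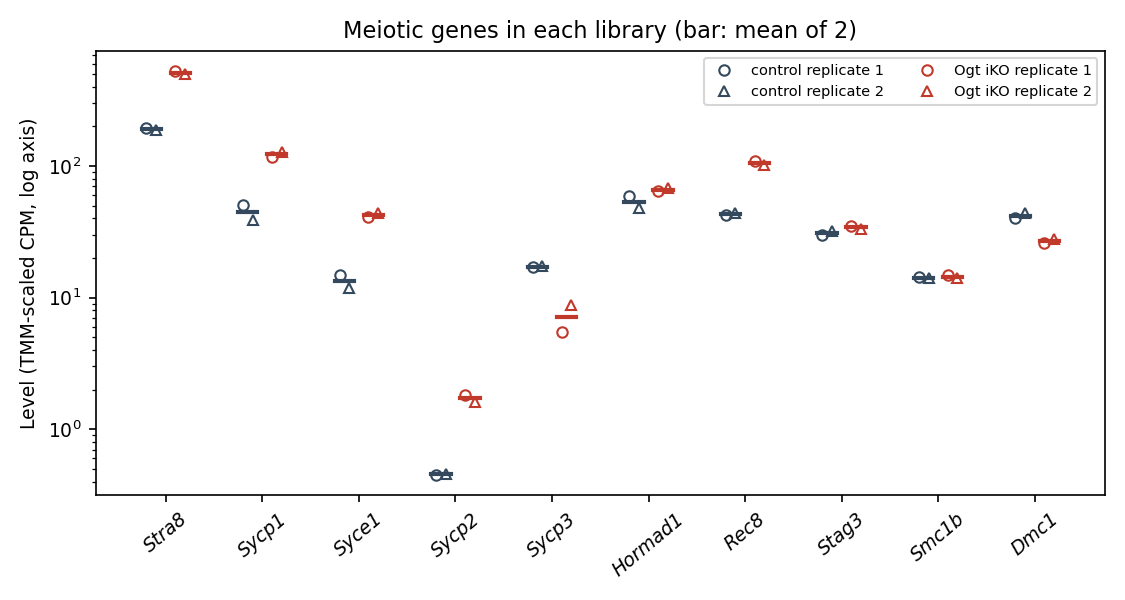
Level of each of the 10 meiotic genes in each of the 4 libraries, in TMM-scaled CPM on a log axis, with the mean of each group as a bar. Both Ogt iKO libraries lie below both controls for Sycp3 and Dmc1 and above them for the other genes except Smc1b, whose groups overlap.

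Stra8, the retinoic acid-induced gate to meiosis, was the most abundant of the 10 per length and rose further. The gene spans bases 34920163 to 34939344 of chromosome 6 (GRCm38, the build of all positions here) and gave 9013 and 7691 counts in the treated libraries and 3030 and 2873 in the controls. Both treated libraries were above both controls. Control cells held 192 CPM ± 5.99 (SD, n = 2) and Ogt iKO cells 512 CPM ± 22.2 (SD, n = 2), a log2 fold change of 1.42 ± 0.0608 SE (edgeR adjusted p 1.013e-06). Without Ogt iKO replicate 1, the library with the highest feeder markers, it was 1.38. Per length it was already the highest of the 10 in control mESC, at 106 CPM per kb of exon ± 3.32 (SD, n = 2).

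The synaptonemal complex genes moved in opposite directions. Sycp1, on chromosome 3 from 102818499 to 102936100, gave 2009 and 1986 counts in the treated libraries and 779 and 593 in the controls. Its level was 2.76-fold higher (log2 fold change 1.46 ± 0.115 SE, edgeR adjusted p 1.476e-05), and the lower treated library, at 118 CPM, was above the higher control, at 50.3 CPM. Syce1, on chromosome 7 from 140777229 to 140787854, had 698 and 676 counts against 228 and 181. It was 3.18-fold higher (log2 fold change 1.67 ± 0.116 SE, edgeR adjusted p 8.662e-06), again with no overlap between the groups.

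Sycp2 had the largest fold change of the 10 on the smallest counts. It lies on chromosome 2 from 178345295 to 178407776 and gave 31 and 25 counts in the treated libraries and 7 and 7 in the controls. This is a level of 1.71 CPM ± 0.143 (SD, n = 2) against 0.454 CPM ± 0.00289 (SD, n = 2). The log2 fold change was 1.90 with a 95% interval from 1.09 to 2.70 (adjusted p 0.001542, edgeR), and with no filter on counts it was 1.88 (adjusted p 0.003032, edgeR). Even after the rise Sycp2 was the lowest of the 10 genes per length, at 0.287 CPM per kb in Ogt iKO.

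Sycp3, whose protein forms the axis together with SYCP2, fell. It lies on chromosome 10 from 88459587 to 88473236 and gave 93 and 136 counts in the treated libraries and 263 and 267 in the controls. Scaled, this is 7.10 CPM ± 2.35 (SD, n = 2) against 17.2 CPM ± 0.293 (SD, n = 2), or 41.3% of the control mean (log2 fold change -1.28 ± 0.207 SE, edgeR adjusted p 0.0007115). The treated libraries differed from each other more than the controls did, yet both lay below both controls. Without Ogt iKO replicate 1 the log2 fold change was -0.97, and without Ogt iKO replicate 2 it was -1.68. Of the exon length of Sycp3, 52.2% lies under exons of Chpt1, a phospholipid synthesis gene on the opposite strand. Chpt1 had 598 and 495 counts against 213 and 221, so it moved up while Sycp3 moved down. The kit keeps strand, but the counted strand is not given in the sources used here, and the Sycp3 count is uncertain to that extent.

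The ratio of Sycp1 to Sycp3 per kb of exon, computed after the values were seen, was 7.68 and 5.19 in Ogt iKO and 1.05 and 0.790 in control. In control cells the rung gene and the axis gene stood near equal per length, and in both treated libraries the rung gene exceeded the axis gene. The uncertainty of the Sycp3 count carries over to this ratio.

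Hormad1, an axis protein that marks chromosomes not yet synapsed, was well expressed in both groups. It lies on chromosome 3 from 95559677 to 95587863 and gave 1106 and 1049 counts in the treated libraries and 913 and 730 in the controls. The groups did not overlap, but the controls differed from each other by more than the nearer control differed from the treated libraries. The level was 1.24-fold higher (log2 fold change 0.31 ± 0.104 SE, edgeR adjusted p 0.02681). Without control replicate 2 this was 0.16 (adjusted p 0.2225, edgeR), so the call rested on that library. DESeq2 did not make the call either (adjusted p 0.05638). Hormad1 has 2 near copies, and how reads shared with them were counted is not given in the sources used here, so its count is uncertain to that extent.

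**Figure D2:**
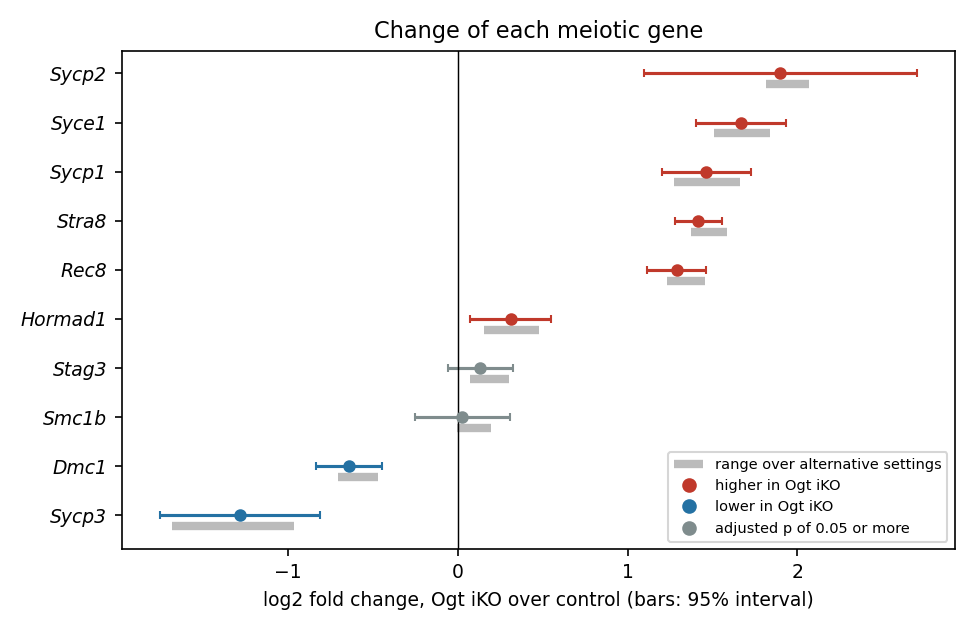
Log2 fold change of each of the 10 genes (points, with 95% intervals from edgeR) and, in grey below each, the range of the same value over the alternative settings. Sycp2, Syce1, Sycp1, Stra8 and Rec8 lie between 1.29 and 1.90, Hormad1, Stag3 and Smc1b between 0.03 and 0.31, and Dmc1 and Sycp3 below 0.

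Among the meiotic cohesin subunits, Rec8 rose, while Stag3 and Smc1b did not pass the test. Rec8 encodes the meiotic kleisin, the subunit that closes the cohesin ring, and lies on chromosome 14 from 55618002 to 55625395. It gave 1877 and 1566 counts in the treated libraries and 655 and 674 in the controls. Control cells held 43.1 CPM ± 1.15 (SD, n = 2) and Ogt iKO cells 105 CPM ± 6.25 (SD, n = 2), a log2 fold change of 1.29 ± 0.0754 SE (edgeR adjusted p 4.082e-06).

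Stag3, the meiotic subunit that binds the kleisin, lies on chromosome 5 from 138272514 to 138312397 and had 596 and 517 counts against 464 and 494. Its log2 fold change was 0.13, with a 95% interval from -0.06 to 0.32 (adjusted p 0.191, edgeR), so that these libraries leave room for a rise of up to 1.25-fold. Scaled by library totals alone it was 0.30 and passed the threshold (adjusted p 0.01331, edgeR), a setting that moved the median of all genes from 0.024 to 0.19. Smc1b, the meiotic form of the SMC1 arm of the ring, lies on chromosome 15 from 85064689 to 85131957 and had 253 and 218 counts against 221 and 215. The ranges of the groups overlapped, and the log2 fold change was 0.03, with a 95% interval from -0.25 to 0.31 (adjusted p 0.8498, edgeR).

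Dmc1 fell. It lies on chromosome 15 from 79561497 to 79605159 and gave 448 and 430 counts in the treated libraries and 622 and 671 in the controls. Control cells held 42.0 CPM ± 2.52 (SD, n = 2) and Ogt iKO cells 26.96 CPM ± 1.07 (SD, n = 2), or 64.2% of control, and the log2 fold change was -0.64 (SE 0.0861, adjusted p 0.0002566, edgeR). Both treated libraries lay below both controls.

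Each of the meiotic cohesin genes has a paralogue that fills the same place in dividing cells, and the proportions were compared per kb of exon within each library. An exact permutation test of 2 libraries against 2 cannot give a p below 0.333, so these ratios carry no call. Rec8 stood at 10.8% and 11.1% of the kleisin Rad21 in the controls and at 31.0% and 27.8% in Ogt iKO (exact two-sided permutation p 0.333). Rad21 itself had a log2 fold change of -0.13 (adjusted p 0.06217, edgeR), which did not pass the test. Smc1b stood at 9.68% and 9.22% of Smc1a in the controls and at 23.4% and 19.96% in Ogt iKO (exact two-sided permutation p 0.333). Of this pair Smc1b did not pass the test, and Smc1a fell, from 3255 and 3323 counts to 1544 and 1557 (log2 fold change -1.16, adjusted p 3.858e-06, edgeR).

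Stag3 was 13.5% and 14.8% of the sum of Stag1 and Stag2 in the controls and 14.2% and 13.5% in Ogt iKO, with overlapping groups. Stag1 rose (log2 fold change 0.42, adjusted p 0.0002554, edgeR), and Stag2 had a value of -0.01. Smc3, the arm that both kinds of cohesin share, fell (log2 fold change -0.71, adjusted p 2.442e-05, edgeR).

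**Figure D3:**
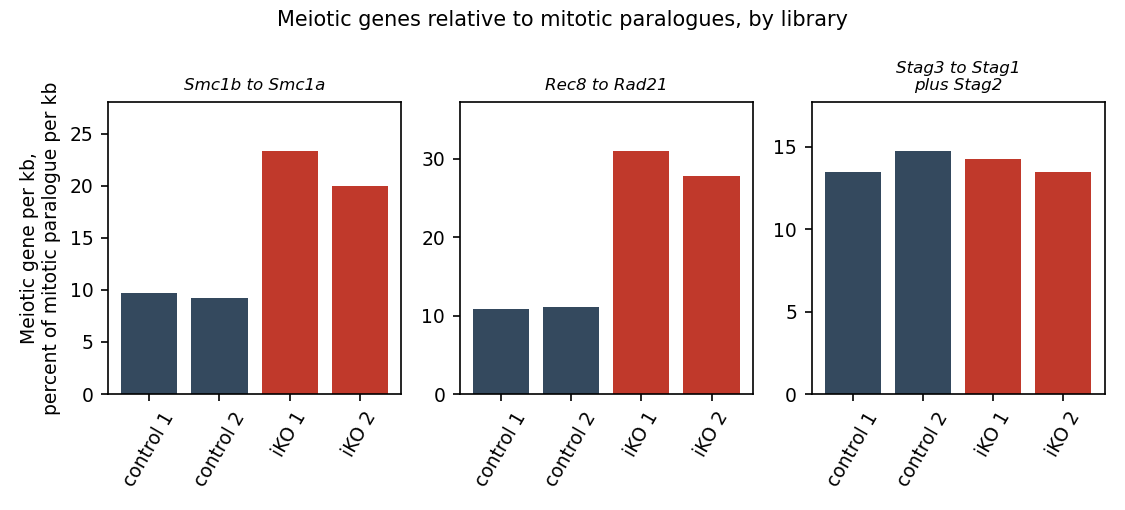
Exon length-scaled count of each meiotic gene as a percent of its mitotic paralogue, with 1 bar per library and axes from 0. Smc1b to Smc1a and Rec8 to Rad21 are higher in both Ogt iKO libraries than in both controls, while the bars of Stag3 to Stag1 plus Stag2 overlap.

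Per kb of exon the order of the 10 genes changed between groups. In the controls it ran Stra8, Hormad1, Dmc1, Rec8, Sycp3, Sycp1, Syce1, Stag3, Smc1b, Sycp2, from 106 to 0.0761 CPM per kb, with Sycp3 (13.4 to 13.8) inside the range of Sycp1 (10.9 to 14.2). In Ogt iKO it ran Stra8, Hormad1, Rec8, Sycp1, Syce1, Dmc1, Stag3, Sycp3, Smc1b, Sycp2, from 284 to 0.287 CPM per kb. Rec8 (34.4 to 37.4) overlapped Sycp1 (33.0 to 36.0) there, and Stag3 (5.81 to 6.08) overlapped Sycp3 (4.30 to 6.94). Dmc1 moved from the third place to the sixth and Sycp3 from the fifth to the eighth.

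The wider meiotic pathway was followed with 53 further genes in 7 lists by step, of which 47 were tested. Of these 15 were higher and 18 lower, or 31.9% and 38.3%, close to the 33.2% and 32.0% of all genes tested, and their median log2 fold change was 0.13. The counts per list given below are to be read beside the same shares of all genes. Of the 47, 5 genes reached the count minimum in the libraries of a single group, 4 of them in Ogt iKO. The number of higher genes depended on the settings. It was 5 with DESeq2, 8 without control replicate 1, 9 without control replicate 2 and 10 without Ogt iKO replicate 1, whereas the number of lower genes stayed between 17 and 19 in these fits.

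Among the other synaptonemal complex genes, the central element genes Syce2 and Syce3 were lower. Syce2 went from 1457 and 1364 counts to 816 and 844 (log2 fold change -0.84), and Syce3 from 26 and 23 to 7 and 2 (-2.50). Syce2 moved opposite to Syce1, whereas Syce3 reached the count minimum in the controls only and so could enter the test only by being lower in Ogt iKO. Six6os1, which also belongs to the central element, had 212 and 198 counts against 146 and 156 (0.36, adjusted p 0.04796, edgeR). Of 8 tested genes for the axis and for making breaks, 3 were higher and 4 lower. Trip13, the ATPase that strips HORMA proteins from the axis, fell by 0.74 on the log2 scale, and Iho1, a HORMAD1 partner in break formation, fell by 1.46. Ankrd31, another break-formation protein, rose by 1.07.

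The 6 tested strand exchange genes held 2 that were higher and 3 that were lower. Mnd1 and Psmc3ip, whose proteins act as a complex that assists DMC1, had log2 fold changes of -0.93 and -0.43, and Hsf2bp, which binds BRCA2, had -0.62. The 2 higher genes, named after their values were seen, were Spata22, which acts with MEIOB (1.49), and Brme1, the partner of Hsf2bp (0.72), so genes of this step went both ways beside Dmc1 (-0.64). Of the exon length of Spata22, 80.5% lies under another gene model on the same strand. Of the exon length of Psmc3ip, 21.2% lies under an opposite-strand gene. Of 10 tested crossover genes 1 was higher and 4 were lower. Tex15, needed for break repair in spermatocytes, rose, from 1124 and 1268 counts to 3001 and 2928 (1.23), and Tex11, an X-linked gene needed for crossovers, fell from 866 and 718 to 377 and 276 (-1.36).

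Of 6 tested genes for telomere attachment, 2 were higher and 1 was lower. Sun1, the nuclear envelope protein that links telomeres to the cytoskeleton, had a log2 fold change of -0.87, its partner Kash5 had 0.83, and Spdya, on 10 and 10 counts against 4 and 2, had 1.62 after entering the test through Ogt iKO only. Of the exon length of Spdya, 18.3% lies under a gene on the opposite strand and 11.4% under another on the same strand. Sgo2a, the protector of centromeric cohesin, was the only tested gene of its list and fell by 0.55, with 35.04% of its exon length under an opposite-strand gene. All values in these paragraphs without a p of their own had an adjusted p under 0.05 (edgeR).

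The list for entry into meiosis had 6 higher and 3 lower of 11 tested, with a median of 0.54. These are 54.5% and 27.3%, against 33.2% and 32.0% of all genes tested. Dazl, an RNA-binding protein that licenses germ cells for meiosis, rose most, from 691 and 567 counts to 5543 and 4028 (log2 fold change 2.84). The retinoic acid receptor gene Rara fell by 0.60. Meiosin, the partner of Stra8, had 79 and 81 counts against 48 and 57, a log2 fold change of 0.53 that did not pass the threshold (adjusted p 0.05396, edgeR).

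**Figure D4:**
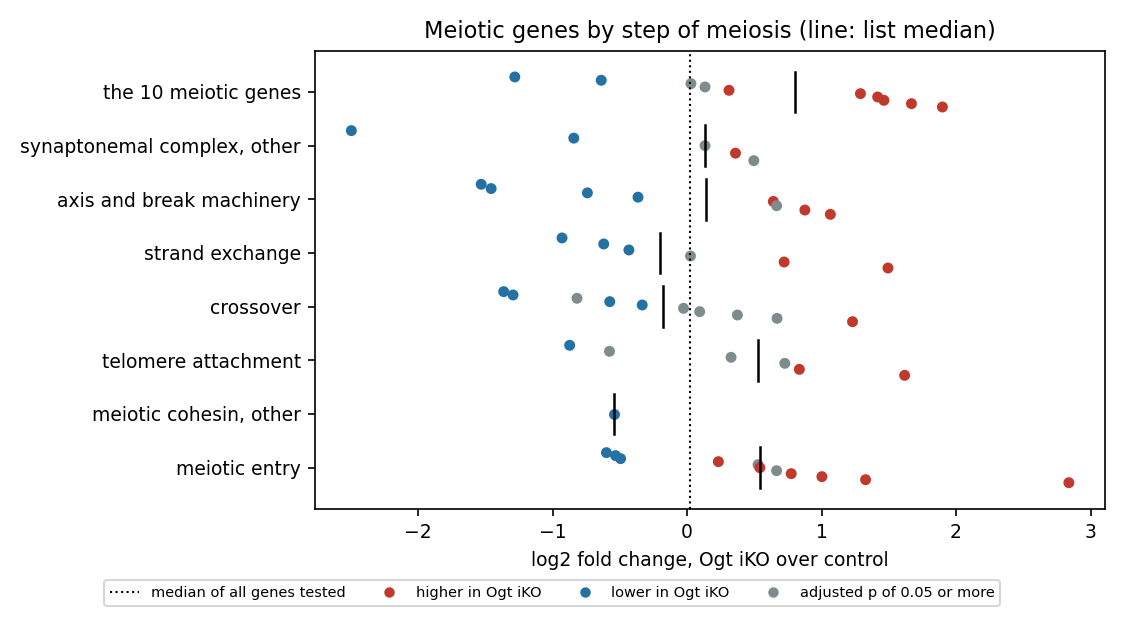
Log2 fold change of every tested gene in the 10 meiotic genes and in 7 further lists, coloured by call, with each list's median as a line and the median of all genes (0.024) dotted. Every list with more than 1 tested gene holds both higher and lower genes.

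Markers of germ cells were examined because these genes normally act there. Of 12 markers 11 were tested, with 5 higher and 4 lower, or 45.5% and 36.4%, against 33.2% and 32.0% of all genes tested. The summed level of the 12 was 601 and 538 CPM in Ogt iKO against 416 and 398 CPM in control. That direction rested on Dazl: without it the sum was 276 and 279 CPM in Ogt iKO against 372 and 361 CPM in control. The lower sum rested in turn on Kit (mean 73.6 CPM in Ogt iKO, 127 CPM in control) and Tfap2c (17.6 and 85.2 CPM). Dppa3 went the other way (91.3 and 52.6 CPM), so neither sum describes the list as a whole. The higher genes (adjusted p under 0.05, edgeR) were Dazl, Nanos3 (log2 fold change 1.37), Dppa3 (0.79), Prdm1 (0.50) and Dnd1 (0.43). The lower ones were Prdm14 (-2.74), Tfap2c (-2.28), Kit (-0.78) and Ddx4 (-0.26). Prdm1, Prdm14 and Tfap2c, all transcription factors of primordial germ cells, thus did not move together. Nanos2, a marker of male germ cells, had 1 and 2 counts in Ogt iKO and 0 and 0 in control. Of the list only Dazl and Kit, with the most counts, were named by the rule, and the others after their values were seen. The part of germ-like cells in the meiotic changes was not tested.

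Upstream sequence was then set beside the changes. In the 250 bases before the start site, CACGTG occurred in 4 of the 10 genes (Sycp1, Sycp3, Hormad1 and Stag3), against 6.02% of the 32851 promoters in the RefSeq table. GCGGGAA occurred in 3 (Sycp3, Hormad1 and Smc1b), against 3.82%, and GCGGGAG in Dmc1 alone, against 8.22%. These shares were not matched for CpG content, and of the 2 RefSeq promoters of Hormad1 only the first was searched. As the stretches printed above show, Hormad1 and Sycp3 share the same arrangement of 1 E2F core followed by 2 E-boxes, and their log2 fold changes were 0.31 and -1.28. Of the 5 genes that rose at least 2-fold, Sycp1 held an E-box. None of these letters occurred in the windows of Syce1, Stra8, Rec8 and Sycp2, but the last 3 windows lie wholly or partly inside the gene, so the sequence before the gene was searched in part or not at all. The window of Stra8 is annotated as exon over all 250 of its bases, that of Rec8 over 129 and that of Sycp2 over 27. The same holds for Stag3, whose E-box lies in a window that is exonic over all 250 bases. The window of Dmc1 also reaches into the gene, at the end nearest the start site. Exons of Smc1b and its neighbour Ribc2 cover 137 bases of the Smc1b window, and exons of Sycp3 cover 18 of its own. The stretches printed above hold no annotated exon.

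The 10 windows held 5 to 26 CpGs, against a median of 6 over all promoters. Stag3 had 26 and Smc1b 25, and neither passed the test. The 6 higher genes ran from 5 (Stra8) to 19 (Hormad1), with 17 in Sycp1, and both lower genes, Sycp3 and Dmc1, had 12, within that range. DNA methylation was not analysed here, so the CpG counts describe the sequence of these windows only.

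**Figure D5:**
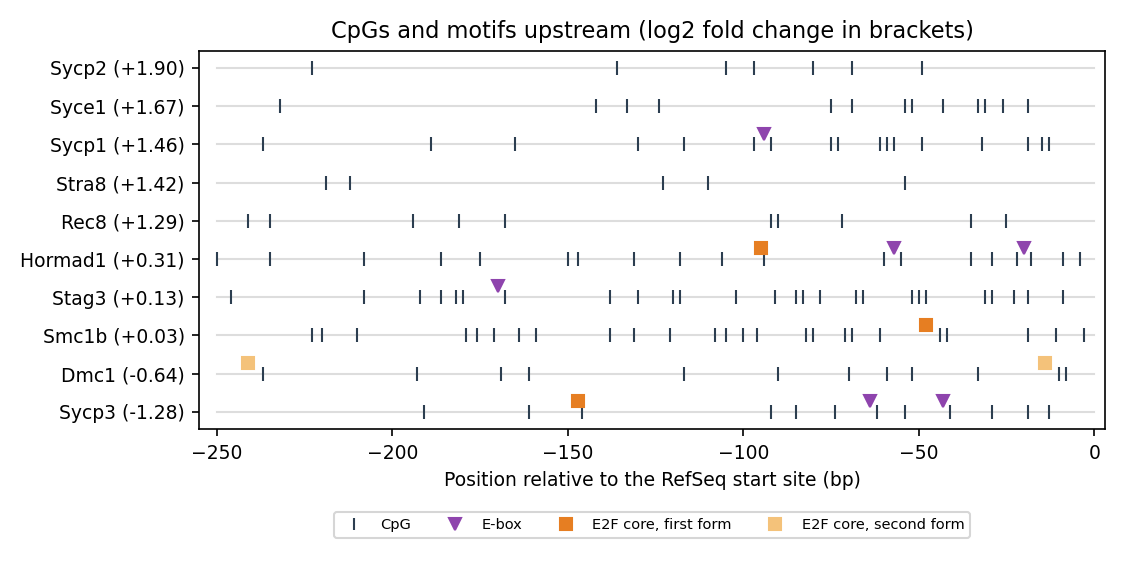
Positions of CpGs, E-boxes and E2F cores in the 250 bases upstream of the RefSeq start site of each gene, ordered by log2 fold change. The first form of the E2F core is GCGGGAA and the second is GCGGGAG, and Sycp1 is the only gene of those up at least 2-fold that holds any of these motifs in its window. The windows of Stag3, Stra8, Rec8, Sycp2 and Dmc1 reach into the gene.

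The genes most alike in pattern were found by the Euclidean distance of centred log2 CPM over the 4 libraries. For Sycp2, the largest rise of the 10, these were Senp7, Cntnap2 and Fmn1, at distances of 0.0460 to 0.0486. For Sycp3, the largest fall, they were Oas1g (0.0624), Rapsn (0.102) and Cplx1 (0.111), whose log2 fold changes ran from -1.50 to -1.32. With 4 libraries and most genes changed, such likeness is a description of these libraries.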

How the data were processed

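The authors deposited 1 table of raw counts per library, a gene symbol and a whole number per row, with no normalization. The submitters' processing notes name STAR, Picard and mm10. Versions, annotation, counted strand and the treatment of reads mapping to several loci are not given in the sources used here. Libraries were made with a stranded mRNA kit, per the labels' protocols. Groups came from the sample titles. The replicates of a group differed by more than sampling noise (chi-square per degree of freedom 7.04 and 4.25).

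All 4 libraries were fitted together with edgeR 4.0.16 in R 4.3.3 (TMM, filterByExpr, quasi-likelihood test, no covariate), after the fit was tested on simulated counts. CPM values use TMM-scaled library sizes. SEs were derived from the fold change and its F statistic. Exon lengths and overlaps came from GENCODE M21, positions and promoters from RefSeq GRCm38.p6. All 10 genes matched a promoter. Nucleotide copies were sought with blastn 2.17.0: Sycp1 has a pseudogene copy, Sycp1-ps1 (92.5% identity over 2560 bases), with 0 to 2 counts per library, and Hormad1 has 2 copies, Gm7167 (92.3% over 1188 bases) and Gm15529 (92.8% over 1049 bases), not analysed here.

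The 10 genes and all lists were chosen with earlier results of these data known. The naming rule took all 10 genes, up to 3 genes with the smallest adjusted p of each further list, any gene of those lists with under 4 counts in both controls and at least 20 in both treated libraries (0 found), the paralogues, Ogt, the 2 marker genes with most counts, and the 3 genes most alike. Some genes the rule took are not reported here. Alternatives were RLE factors, DESeq2 1.42.0, other filters, library totals, a robust spread, an adjusted p under 0.01, glmTreat, a replicate block and leaving out each library. Upper-quartile scaling, a 2-fold minimum and leaving out overlapping genes were added after seeing the data.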

Additional observations from a re-analysis of the deposited data

How the results depend on the processing

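Calls for Stra8, Sycp1, Sycp2, Syce1, Rec8 and Dmc1 kept their direction and side of the threshold in all 15 alternatives that gave them a value, and that of Sycp3 in all 14. Leaving out overlapping genes, counted among the 15, removed rows without a refit, so the values kept there could not differ. The number of higher genes among the 10 ran from 5 to 7. Hormad1 lost its call in 5 alternatives: DESeq2, no filter, adjusted p under 0.01, glmTreat and without control replicate 2. Smc1b changed sign with 1 library left out (-0.0036 to 0.041). With 1 library left out, the log2 difference between groups in the ratio of Stag3 to Stag1 plus Stag2 ran from -0.091 to 0.041. For the 53 further genes, the 15 higher became 5 with DESeq2, 7 at an adjusted p under 0.01, 7 at 2-fold or more and 8 to 11 with 1 library left out, and the 18 lower became 5 at 2-fold or more. The 2 lower of the 10 became 1 at 2-fold or more (without Dmc1) and 1 without overlapping genes (without Sycp3). All genes called fell from 9478 to 3048 at 2-fold or more. Of all calls, 50.9% were higher, against 65.1% with library totals alone. With the replicate number as a block, 6 and 2 of the 10 were called, 16 and 18 of the further genes, and 9641 of all genes. The labels give no shared origin for equal numbers, and their deviations correlated at 0.086. Genes of under about 10 counts per library are limited by counting error. When a group is left with a single library, that library is assumed to vary like the other group.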

Other observations

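Of the further meiotic genes, 6 were too low to test. Rnf212, a crossover factor, had 13 and 7 counts in Ogt iKO and 1 and 1 in control, and Rad21l, a meiotic kleisin beside Rec8, had 15 and 8 against 3 and 8. Spo11, which makes the breaks that start recombination, had 6 and 3 against 1 and 2, and its partner Top6bl had 5 and 5 against 3 and 4. Meiob, a single-strand DNA-binding protein, had 5 and 1 against 10 and 8, and Meikin, a regulator of meiotic kinetochores, had 2 and 2 against 0 and 1.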
